A study of Homo sapiens with 4 samples.

Results

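The 10 sensors of stalled and collided ribosomes examined were ZAK, GTPBP1, GTPBP2, PELO, HBS1L, ZNF598, EDF1, ASCC3, GIGYF2 and EIF4E2. They were taken by gene symbol from the 18917 genes of a count table, in which MAP3K20 stands under its older symbol ZAK. All 10 were found there, and 9 had a level of 1 CPM (counts scaled to a common library size) or more in 2 or more libraries and entered the test. PELO had no count in any library. The libraries are total RNA of HEK293, a human embryonic kidney line, 2 of the wild type (WT) and 2 of a THUMPD1 knockout (KO). All were grown in DMEM with 10% serum and 2 mM glutamine and sequenced after depletion of ribosomal RNA. The study's methods call the line HEK-293T. The KO was made by CRISPR-Cas9 with a pair of guides, followed by sorting of single cells, so that the genotype and the clone cannot be told apart. Nothing states that replicates came from separate cultures, and p-values measure the spread between these libraries, which may be technical.

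When an elongating ribosome stops, the ribosome behind it runs into it. The joint surface of such a collision is read by dedicated proteins, which mark or split the stalled ribosome, silence the mRNA and start kinase signalling. Collisions also activate the kinase GCN2, which phosphorylates eIF2α. THUMPD1 is the adaptor that lets NAT10 acetylate a cytidine of leucine and serine tRNAs, and the study asked how the loss of this acetyl group affects translation and stress signalling. The comparison of KO with WT gives the mRNA levels of the sensors. It does not measure their proteins or the collisions themselves.

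Library totals ran from 7875722 to 11362363 counts, and 3 counts correspond to between 0.259 and 0.391 CPM. THUMPD1, the targeted gene, was counted 356 and 468 times in WT and 71 and 58 times in KO. Its level fell by 2.93 on the log2 scale (SE 0.17, adjusted p = 1.27e-12, from the quasi-likelihood test of edgeR after Benjamini-Hochberg correction, as are all adjusted p-values unless another tool is named). All 7 markers of HEK293 cells that were checked, such as PAX2 and VIM, reached 1 CPM in all 4 libraries, with a summed level of 743 and 724 CPM in WT and 587 and 631 CPM in KO. Of the summed difference, the neurofilament gene NEFM alone went from 185 and 177 CPM to 26.3 and 23.0 CPM. Of 9 markers of other cell types, 3 reached 1 CPM everywhere, namely COL1A1 at 18.5 to 25.3 CPM, COL3A1 and CD68. The sum of all 9 ran from 28.7 to 33.6 CPM, and UMOD of the mature kidney had no count. The genes of chromosomes 16 and 22 were lower as a body in KO, with 50.6% of the 573 tested on chromosome 16 and 60.1% of the 311 on chromosome 22 called lower. THUMPD1 itself lies on chromosome 16, and with the median of that chromosome subtracted its log2 fold change was -2.49.

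Of the 9 sensors tested, 3 fell in KO (ZNF598, EIF4E2 and GTPBP1), none rose and 6 did not pass the threshold of 0.05. Over all 13128 genes tested, 20.9% passed it, 12.1% being lower and 8.79% higher. The median log2 fold change of the sensors was -0.02, beside 0.01 over all genes. In 4 of the 9 sensors both KO libraries lay below both WT libraries, as in 30.0% of all genes, and in 1 both lay above, as in 30.4%. The ubiquitin ligase ZNF598 stood apart in size, at 62.5% of its WT level, while the remaining 8 lay between 83.5% and 106%. Of the 3 that fell, ZNF598 alone was called under all 8 other normalizations, filters and tests that left chromosomes as they were. Genotypes with 2 libraries each cannot reach an exact permutation p below 0.333, so that the calls rest on the spread shared across all genes in the model.

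**Figure D1:**
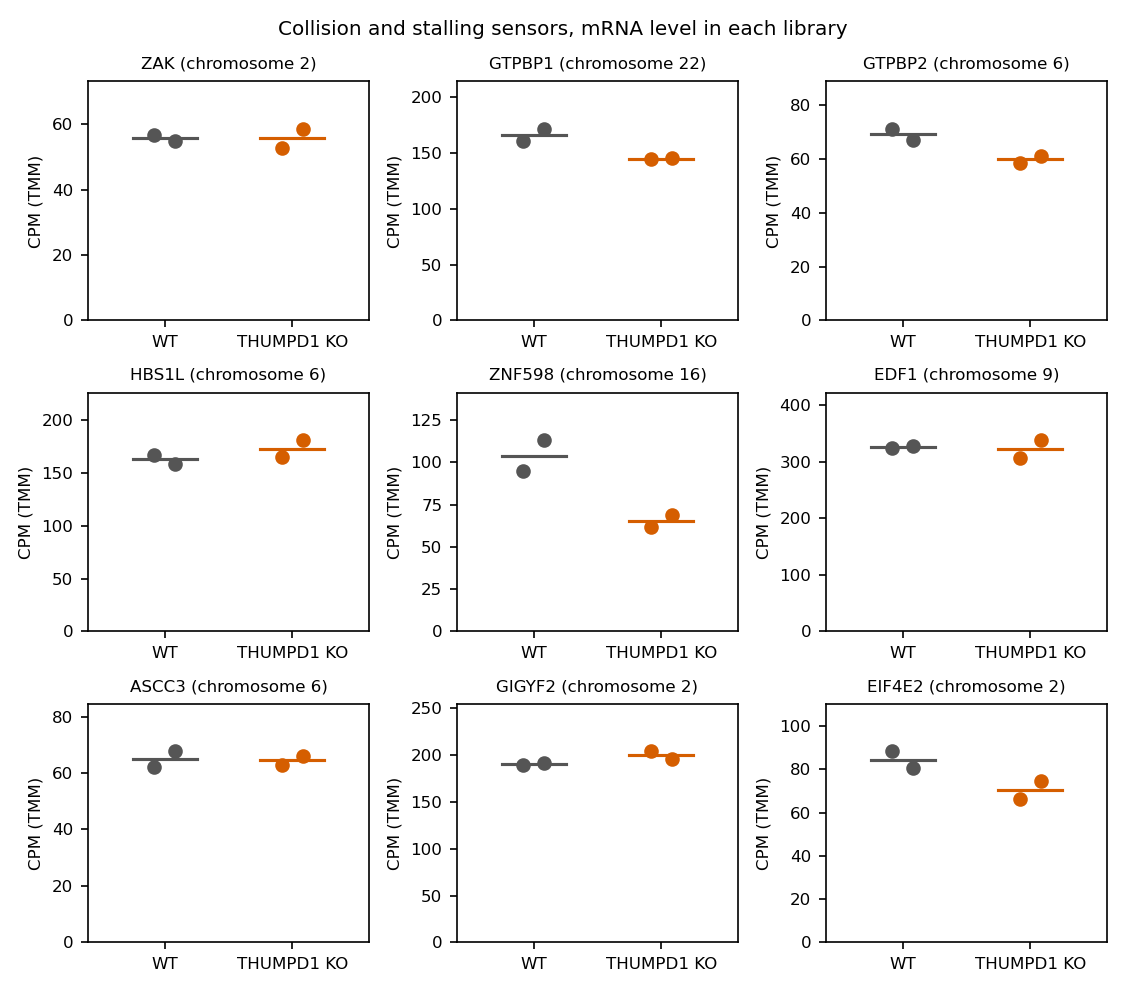
CPM of each sensor on TMM-scaled library sizes, with 1 panel per gene and its own axis from 0. Points are the 2 WT and the 2 KO libraries, and the bar is their mean. The KO points of ZNF598 sit at 61.5 and 68.8, under both WT points at 94.8 and 113, while those of ZAK, ASCC3, EDF1 and HBS1L overlap with WT.

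The recognition of collided ribosomes rests on ZNF598 and EDF1. ZNF598 is the ubiquitin ligase that binds the interface of the collided ribosomes and modifies proteins of the small subunit, the first step of ribosome quality control. The gene lies on the minus strand at chr16:1997654-2009821 (GRCh38), with 14 exons in its canonical transcript. Its counts were 727 and 1239 in WT and 712 and 733 in KO, that is 94.8 and 113 CPM against 61.5 and 68.8 CPM. The genotypes did not overlap, and the gap between them was wider than the gap within either genotype. The mean went from 104 ± 12.7 CPM to 65.2 ± 5.18 CPM (SD, n = 2 libraries each). The log2 fold change was -0.68 (SE 0.09, 95% interval -0.87 to -0.49, edgeR adjusted p = 7.93e-06). Without each library in turn it lay between -0.79 and -0.54, and was called in all 4 of these fits.

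The fall of ZNF598 was larger than the median of its chromosome and close to that of its nearest genes. The median of the other 572 genes tested on chromosome 16 was -0.44, and 127 of them lay below ZNF598. The 20 nearest tested genes, 10 to either side and spanning 0.453 Mb, had a median of -0.66, and 15 of them were called lower and none higher. The neighbours themselves differed. SLC9A3R2, a scaffold protein of membrane transporters, had 76.9 and 79.7 CPM in WT and 35.0 and 36.4 CPM in KO, a log2 fold change of -1.13 (SE 0.10, edgeR adjusted p = 6.89e-09). On the other side SYNGR3, a synaptic vesicle protein, had between 16 and 31 counts and a log2 fold change of -0.63 (SE 0.51, edgeR adjusted p = 0.404), an interval too wide to place it. With the median of each chromosome subtracted, the value of ZNF598 was -0.24 (SE 0.09, edgeR adjusted p = 0.0780) and was no longer called. How much of the fall belongs to the gene and how much to the chromosome was not tested beyond this subtraction.

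**Figure D2:**
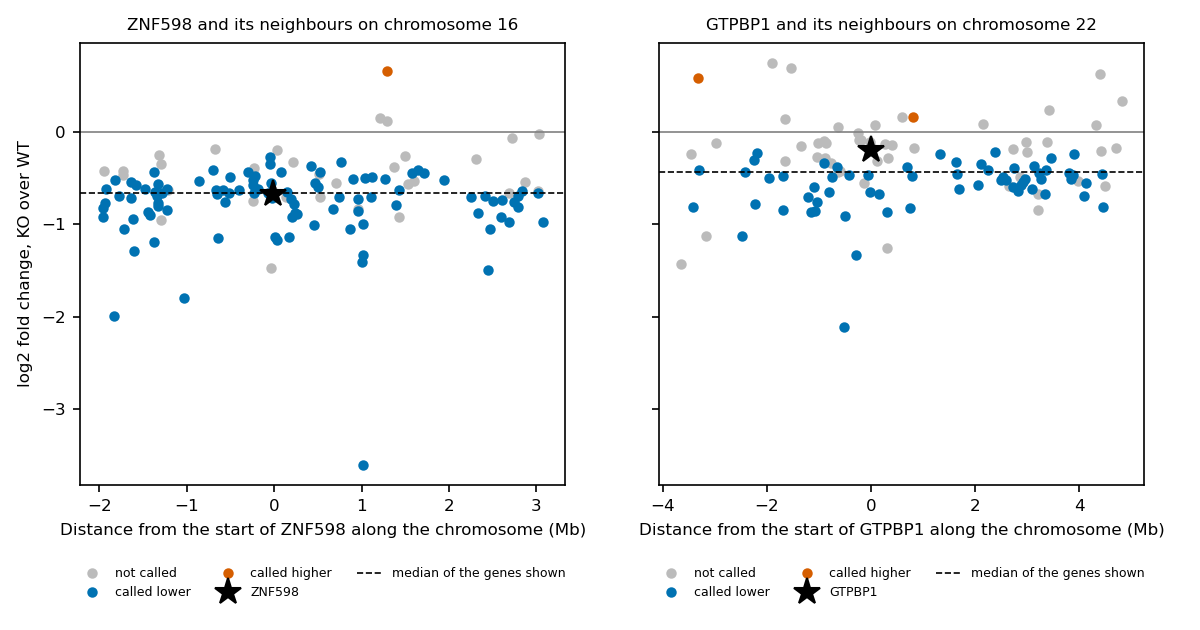
Log2 fold change of KO over WT for genes within 5 Mb of ZNF598 (left) and GTPBP1 (right), against the distance along the chromosome from the gene's start in Mb. Blue points were called lower, orange points higher and grey points neither, and the dashed line is the median of the genes shown. ZNF598, the star in the left panel, sits at -0.68 on a median of -0.66, with 99 of its 132 neighbours called lower, and GTPBP1, the star in the right panel, sits at -0.19 above a median of -0.43.

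EDF1 binds the small subunit where the mRNA enters a collided ribosome and brings the repressors GIGYF2 and EIF4E2 to it. The gene lies at chr9:136862119-136866308 on the minus strand and had 324 and 328 CPM in WT and 306 and 338 CPM in KO. The WT libraries fell inside the range of the KO libraries. Its log2 fold change of -0.02 (SE 0.06, 95% interval -0.15 to 0.11, edgeR adjusted p = 0.858) did not pass, and as fitted its interval does not reach that of ZNF598. With the median of each chromosome subtracted the intervals overlapped, at -0.16 to 0.10 for EDF1 and -0.43 to -0.05 for ZNF598. The count of ZNF598 relative to that of EDF1 in the same library was 0.292 and 0.343 in WT and 0.201 and 0.204 in KO, with no overlap. This ratio sets a gene of chromosome 16, with a median of -0.44, against a gene of chromosome 9, with a median of 0.01. It was not tested.

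Rescue of ribosomes stalled at an empty or slow site involves GTPases of the family of translation factors that deliver tRNAs. GTPBP1 and GTPBP2 are related members that act on stalled ribosomes, and GTPBP2 is known from mice that lack it together with an arginine tRNA of the brain. GTPBP1 lies at chr22:38705742-38738299 on the plus strand and had 1228 and 1876 counts in WT and 1672 and 1549 in KO. On the CPM scale these were 160.2 and 171 in WT and 144 and 145 in KO, so that the KO libraries lay below both WT libraries by a narrow margin. The log2 fold change was -0.19 (SE 0.07, 95% interval -0.34 to -0.05), just inside the threshold with an edgeR adjusted p of 0.0490. The call was lost without WT replicate 2, at -0.14 with an adjusted p of 0.279, without KO replicate 1, at -0.19 with an adjusted p of 0.192, and without KO replicate 2, at -0.20 with an adjusted p of 0.129. It held in 3 of 8 other normalizations, filters and tests.

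GTPBP1 also lies on a chromosome whose genes were lower. The median of the other 310 genes tested on chromosome 22 was -0.42, and 239 of them lay below GTPBP1. Its nearest tested genes were the deubiquitinase JOSD1, at -0.11 (SE 0.10, edgeR adjusted p = 0.432), and SUN2 of the inner nuclear membrane, at -0.18 (SE 0.10, edgeR adjusted p = 0.231). Neither passed the threshold. SUN2 overlaps the end of GTPBP1 on the opposite strand, and whether the counting used strand is not stated, so that reads of this stretch are uncertain. Relative to the median of its chromosome GTPBP1 stood higher, at 0.22 (SE 0.07, edgeR adjusted p = 0.0262), and so its direction depends on this subtraction.

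GTPBP2 lies at chr6:43605316-43629264 on the minus strand, and had 70.9 and 67.1 CPM in WT and 58.5 and 61.0 CPM in KO. The genotypes did not overlap, but its log2 fold change of -0.21 (SE 0.09, 95% interval -0.40 to -0.01) did not pass after adjustment (edgeR adjusted p = 0.124). This estimate is as large as that of GTPBP1, whose higher counts gave the smaller error. The genes of chromosome 6 had a median of 0.06, and with the median subtracted GTPBP2 was at -0.27 (edgeR adjusted p = 0.0472). The ratio of GTPBP1 to GTPBP2 counts was 2.26 and 2.55 in WT and 2.47 and 2.38 in KO, with the KO values inside the range of WT. GTPBP2 overlaps POLH, a DNA polymerase gene on the opposite strand with 453 to 673 counts, and its reads there are uncertain for the same reason.

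**Figure D3:**
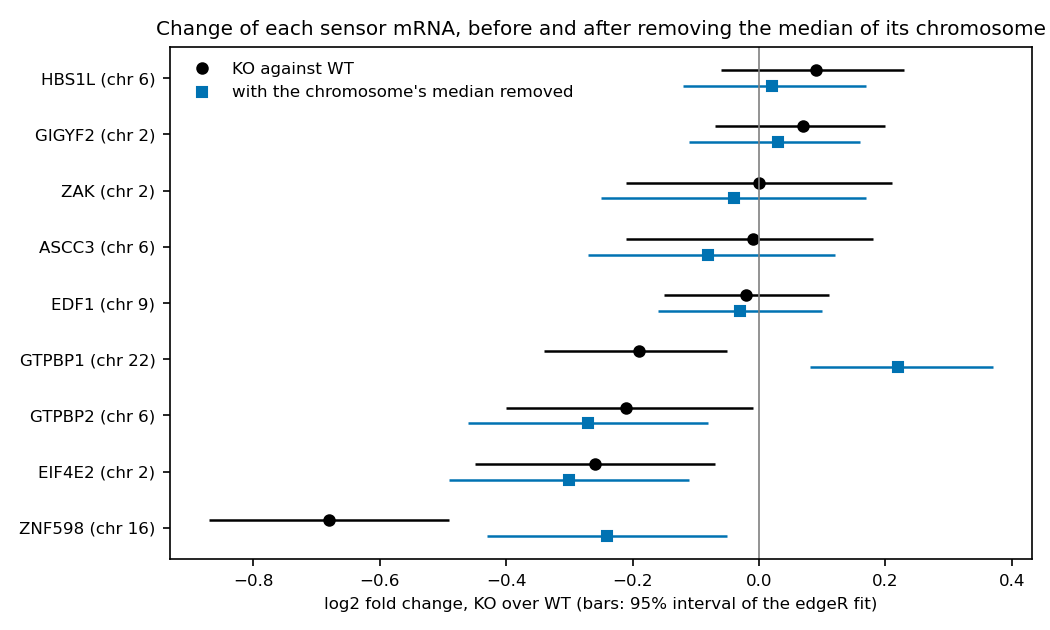
Log2 fold change of KO over WT for the 9 sensors tested, in black as fitted and in blue with the median of the gene's chromosome subtracted. Points are estimates and bars the 95% intervals of the edgeR fit. ZNF598 moves from -0.68 to -0.24 and GTPBP1 from -0.19 to 0.22, while EIF4E2 and GTPBP2, on chromosomes 2 and 6, stay below 0 in both.

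Splitting of a stalled ribosome into its subunits is the work of PELO and HBS1L, which resemble the release factor eRF1 and its GTPase partner. HBS1L, the GTPase, lies at chr6:134960378-135103056 on the minus strand and had 167 and 159 CPM in WT and 165 and 181 CPM in KO. The genotypes overlapped, and the log2 fold change was 0.09 (SE 0.07, 95% interval -0.06 to 0.23, edgeR adjusted p = 0.407). PELO had no count in WT or KO, where 3 counts would have corresponded to at most 0.391 CPM. Its annotated start at chr5:52787916-52804044 is that of ITGA1, the integrin gene within whose bounds it lies on the same strand. ITGA1 had 63 and 73 counts in WT and 108 and 93 in KO, with a log2 fold change of 0.29 (SE 0.25, edgeR adjusted p = 0.444). How reads of overlapping genes were assigned is not stated. A count of 0 in all 4 libraries can therefore not be read as absence of PELO mRNA, and no fold was computed.

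Disassembly of the leading collided ribosome is carried out by the ASC-1 complex, whose motor is the helicase ASCC3. The gene lies at chr6:100508194-100881372 on the minus strand and had 62.1 and 67.7 CPM in WT and 62.8 and 66.2 CPM in KO. The KO values fell inside the WT range. Its log2 fold change was -0.01 (SE 0.09, 95% interval -0.21 to 0.18, edgeR adjusted p = 0.941).

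Signalling from collided ribosomes to the stress kinases JNK and p38 starts with ZAK, a kinase of the MAP3K class that rides on ribosomes. It lies at chr2:173075435-173268015 on the plus strand and had 56.6 and 54.8 CPM in WT and 52.8 and 58.4 CPM in KO. The WT values fell inside the KO range, and the log2 fold change was 0.00 (SE 0.10, 95% interval -0.21 to 0.21, edgeR adjusted p = 0.991). For ZAK as for ASCC3 the interval excludes a change beyond 0.21 in either direction and leaves smaller changes possible.

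Repression of the mRNA under a collision is assigned to GIGYF2, a scaffold protein, and EIF4E2, a cap-binding protein that does not support initiation. EIF4E2, at chr2:232550659-232583644, and GIGYF2, at chr2:232697299-232860605, lie 114 kb apart on the same strand. EIF4E2 had 677 and 886 counts in WT and 766 and 794 in KO, that is 88.3 and 80.6 CPM against 66.2 and 74.6 CPM. The genotypes did not overlap, though KO replicate 2 came within the distance that separates the WT libraries. The log2 fold change was -0.26 (SE 0.09, 95% interval -0.45 to -0.07, edgeR adjusted p = 0.0422). The call was lost without WT replicate 1, at -0.20 with an adjusted p of 0.211, and without KO replicate 1, at -0.18 with an adjusted p of 0.356, and it held in 4 of 8 other normalizations, filters and tests. Chromosome 2 had a median of 0.04, and relative to it EIF4E2 was at -0.30 (edgeR adjusted p = 0.0225).

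GIGYF2 had 189 and 192 CPM in WT and 204 and 196 CPM in KO. Both KO libraries were above both WT libraries, but the log2 fold change of 0.07 (SE 0.06, 95% interval -0.07 to 0.20, edgeR adjusted p = 0.494) did not pass. The count of EIF4E2 relative to GIGYF2 in the same library was 0.467 and 0.419 in WT and 0.325 and 0.380 in KO, with no overlap between the genotypes. This ratio was not tested. GIGYF1, the paralog of GIGYF2 that also binds EIF4E2, lies on chromosome 7. Its CPM were 51.3 and 58.7 in WT and 43.4 and 43.2 in KO, and it fell by 0.35 on the log2 scale (SE 0.11, edgeR adjusted p = 0.0206). This call was lost without WT replicate 2, at -0.24 with an adjusted p of 0.247, and without either KO library, at -0.35 with adjusted p-values of 0.0747 and 0.0611. The ratio of GIGYF1 to GIGYF2 counts was 0.271 and 0.305 in WT and 0.213 and 0.220 in KO.

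With the median of each chromosome subtracted, 3 of the 9 sensors passed, as did 18.1% of all genes. They were GTPBP1, which then lay above 0, and GTPBP2 and EIF4E2, which lay below it.

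Levels can be compared between genes only per length of transcript. Divided by the longest annotated transcript, EDF1 was the most abundant sensor in WT by a wide margin, at 403 ± 3.73 CPM per kilobase, and GTPBP1 followed at 33.7 ± 1.52 (SD, n = 2 libraries). GIGYF2 at 24.2 ± 0.289, ZNF598 at 23.3 ± 2.84, HBS1L at 23.0 ± 0.790 and GTPBP2 at 22.8 ± 0.906 CPM per kilobase came next, and each overlapped with its neighbour in this order. EIF4E2 stood at 17.3 ± 1.11, and ASCC3 (7.65 and 8.35) and ZAK (7.88 and 7.63) overlapped at the low end. In KO the order changed at ZNF598, which at 14.6 ± 1.16 went from rank 4 to rank 6 and overlapped with EIF4E2 at 14.4 ± 1.22 CPM per kilobase. The order below EDF1 depends on the length used. For EIF4E2 the longest transcript has 4879 bases and the canonical one 967. Levels on canonical lengths were not computed, so that its place on that length is not known. EIF4E2 held rank 7 in WT and KO with the longest transcript and with all annotated exons alike. Its overlap with ZNF598 in KO was seen with the longest transcript alone, and with all annotated exons EIF4E2 was at 6.13 ± 0.517 CPM per kilobase in KO. With the bases of all annotated exons ZNF598 held rank 2 in WT, at 22.1 ± 2.70, and rank 4 in KO, at 13.9 ± 1.10 CPM per kilobase.

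The sensors also differ in the leucine codons of their own coding sequences, which the study divides into those rich in U or A, namely TTA or TTG and those that begin with CT and end in T or A, and the remaining leucine codons, which end in C or G after CT. In the canonical transcripts of GENCODE 44, the first kind made up a median of 38.4% of the leucine codons over 19702 genes, with quartiles of 21.6% and 58.3%. ASCC3 had the highest share of the 10 sensors, 71.1% or 172 of 242 leucine codons, above 89.4% of genes. HBS1L at 64.8% and GIGYF2 at 61.5% also lay above the upper quartile, and ZAK at 50.0% and EIF4E2 at 47.1% above the median. PELO at 31.4%, EDF1 at 30.0% and GTPBP2 at 21.9% lay below the median. GTPBP1 at 18.0% and ZNF598 at 15.7%, or 11 of 70, were below the lower quartile. To show the extremes, a stretch of 20 codons is given for ASCC3 (codons 1955 to 1974) and ZNF598 (codons 596 to 615). Each is the first stretch with the highest number of leucine codons rich in U or A, and later overlapping stretches hold as many. The sequences are the coding strand from 5′ to 3′ with these leucine codons in capitals.
ASCC3: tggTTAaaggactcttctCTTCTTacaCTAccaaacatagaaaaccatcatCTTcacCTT
ZNF598: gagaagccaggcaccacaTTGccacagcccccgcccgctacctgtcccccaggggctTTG
The ASCC3 stretch holds 6 of these codons and that of ZNF598 holds 2. The counts of these mRNAs do not measure how fast such codons are read, and the shares are given as a property of the sequences.

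The wider pathway was read from a list of 53 genes in 7 roles, of which 52 were in the table and all 52 were tested. RPS10 was not found under its symbol. Of the 52, 9 were called higher and 11 lower, beside 8.79% and 12.1% of all genes, and the median log2 fold change was 0.01, as was that of all genes. The 9 genes of the list on chromosomes 16 and 22 all lay below 0 with a median of -0.33, and 7 of them were called lower. Of all 884 genes tested on these chromosomes 477 were called lower, with a median of -0.44. Of the 43 on other chromosomes 9 were called higher and 4 lower, with a median of 0.04. Of all 12129 genes placed on other chromosomes 1132 were higher and 1105 lower, with a median of 0.03. With the chromosome medians subtracted, 7 were higher and 6 lower, beside 18.1% of all genes called in either direction.

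In the ASC-1 complex, 1 of the 3 partners of ASCC3 fell, beside 12.1% of all genes. ASCC2, its subunit that binds ubiquitin chains, lies on chromosome 22 and had 124 and 130.4 CPM in WT and 110.5 and 92.7 CPM in KO, with a log2 fold change of -0.33 (SE 0.08, edgeR adjusted p = 0.00572). Without KO replicate 2 it was -0.21 with an adjusted p of 0.138, and relative to its chromosome it was 0.09 with an adjusted p of 0.501. Of 3 genes for splitting and release, GSPT1 fell, beside the same share of all genes. It encodes eRF3a, the GTPase partner of the release factor eRF1 and a relative of HBS1L, and lies on chromosome 16. GSPT1 went from 181 and 170.4 CPM to 103 and 107 CPM, a log2 fold change of -0.74 (SE 0.07, edgeR adjusted p = 4.05e-08), and it was still lower relative to its chromosome, at -0.30 with an edgeR adjusted p of 0.00462. ABCE1, which splits ribosomes with PELO and HBS1L, and ETF1 did not pass.

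Quality control on the split large subunit had 4 of 9 genes lower and none higher, beside 12.1% and 8.79% of all genes. ANKZF1, which frees the nascent chain from its tRNA, went from 29.6 and 27.5 CPM to 18.3 and 19.4 CPM, a log2 fold change of -0.59 (SE 0.15, edgeR adjusted p = 0.00469). VCP, the ATPase that extracts ubiquitylated chains, went from 183 and 189 CPM to 148 and 156 CPM, a log2 fold change of -0.29 (SE 0.07, edgeR adjusted p = 0.00286). Both lie on chromosomes without a shift, 2 and 9, and both were called without each library in turn. TCF25, the counterpart of the yeast factor Rqc1, lies on chromosome 16 and was at -0.33 (SE 0.10, edgeR adjusted p = 0.0170), but at -0.15 with an adjusted p of 0.412 without KO replicate 1. The fourth was UFD1L, a cofactor of VCP on chromosome 22, at -0.31 (SE 0.10, edgeR adjusted p = 0.0332). Without each library in turn UFD1L lay between -0.38 and -0.25. Relative to their chromosomes TCF25 and UFD1L both stood at 0.11, with edgeR adjusted p-values of 0.468 and 0.532, so that neither call nor direction held. LTN1, the ligase that marks the nascent chain, and NEMF, which recruits it, did not pass.

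Among the targets and enzymes of small-subunit ubiquitylation 4 of 9 rose and 2 fell, beside 8.79% and 12.1% of all genes. RPS20, a ribosomal protein that ZNF598 modifies, went from 839.6 and 843 CPM to 1094 and 1035 CPM (log2 fold change 0.34, SE 0.06, edgeR adjusted p = 0.000132). RPS3 went from 854 and 884 CPM to 1052 and 1080 CPM (0.29, SE 0.06, edgeR adjusted p = 0.000586). RPS2 on chromosome 16 went the other way, from 2317 and 2477 CPM to 1871 and 1899 CPM (-0.35, SE 0.06, edgeR adjusted p = 0.000126), and stood at 0.09 relative to its chromosome with an adjusted p of 0.294. In none of these 3 did the genotypes overlap. The other gene of this role that fell was USP10, also on chromosome 16, at -0.33 (SE 0.07, edgeR adjusted p = 0.00193). Relative to its chromosome USP10 stood at 0.11 with an edgeR adjusted p of 0.348. Ribosomal protein genes have processed pseudogenes with near-identical sequence, and their counts are uncertain to the extent that reads were shared.

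In the GCN2 arm, listed together with ubiquitin ligases of the ribosomal A site, 2 of 9 genes rose and 1 fell. Over all genes 8.79% were higher and 12.1% lower. None of the 3 genes called in this role was called with the chromosome medians subtracted. EIF2AK4, which encodes GCN2, had 59.6 and 58.9 CPM in WT and 80.8 and 67.9 CPM in KO (log2 fold change 0.33, SE 0.10, edgeR adjusted p = 0.0174). The KO libraries were apart from each other as well as from WT, and without KO replicate 1 the value was 0.20 with an adjusted p of 0.333, and without WT replicate 2 it was 0.32 with an adjusted p of 0.0516. RWDD1, a partner of the ribosome-binding GTPase DRG2, was at 0.31 (SE 0.11, edgeR adjusted p = 0.0462). It was no longer called without KO replicate 1, at 0.19 with an adjusted p of 0.418, or without WT replicate 1, at 0.23 with an adjusted p of 0.202. DRG1, the related GTPase on chromosome 22, went from 81.4 and 85.6 CPM to 61.5 and 60.3 CPM (-0.46, SE 0.09, edgeR adjusted p = 0.000537) and was at -0.04 relative to its chromosome, with an adjusted p of 0.795. EIF2AK4 was then at 0.27 with an adjusted p of 0.0546 and RWDD1 at 0.24 with an adjusted p of 0.128.

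Of the kinases downstream of ZAK 3 of 9 rose and 1 fell, beside 8.79% and 12.1% of all genes. MAPK8, the kinase JNK1, had 18.4 and 20.7 CPM in WT and 29.5 and 25.6 CPM in KO (log2 fold change 0.49, SE 0.15, edgeR adjusted p = 0.0203). MAPK9, or JNK2, had 91.9 and 87.7 CPM in WT and 105 and 108 CPM in KO (0.25, SE 0.08, edgeR adjusted p = 0.0250). MAP2K7, a kinase that activates both, went from 91.3 and 88.6 CPM to 70.1 and 71.9 CPM (-0.34, SE 0.08, edgeR adjusted p = 0.00504). MAP2K4, listed in the same role, went the other way, at 0.32 (SE 0.11, edgeR adjusted p = 0.0347). It lay between 0.29 and 0.36 without each library in turn and lost the call in each of these fits. The fall of MAP2K7 was called without each library in turn. The rise of MAPK8 was lost without KO replicate 1, at 0.38 with an adjusted p of 0.221, and without WT replicate 1, at 0.41 with an adjusted p of 0.0883. That of MAPK9 was lost without KO replicate 1, KO replicate 2 or WT replicate 2, with adjusted p-values of 0.0724, 0.120 and 0.150, and relative to its chromosome, at 0.18 with an adjusted p of 0.119. Of the 10 genes for repression and decay of the mRNA, GIGYF1 alone passed, beside 20.9% of all genes. DDX6, XRN1 and the cap-binding protein EIF4E were among the 9 that did not.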

How the data were processed

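Total RNA of 4 HEK293 libraries was measured by RNA-seq. What the authors deposited is a table of raw counts by gene symbol, without normalization. The submitters' notes name hg19, whereas the study's methods name STAR and RSEM on GRCh38 and limma-voom with quantile normalization. They also name a stranded kit other than the Zymo-Seq RiboFree kit of the labels, and more samples per genotype than the 2 analysed here. Which pipeline made the counts, and how it treated strand and overlapping genes, is not stated. A further deposited table of the authors' own comparison, with log2 fold changes and p-values, was not used.

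Genes reaching 1 CPM in 2 or more libraries, 13128 in all, were fitted in R 4.3.3 with edgeR 4.0.16 (TMM, glmQLFit, glmQLFTest), genotype alone in the model, Benjamini-Hochberg adjustment over all of them and a threshold of 0.05. The common biological coefficient of variation was 6.75%. CPM use TMM-scaled library sizes. DESeq2 1.42.0 and limma 3.58.1 gave alternatives. Genes were placed on GRCh38 by GENCODE 44, 12167 by symbol, 846 by synonym and 115 not at all, with Python 3.11.15, pandas 2.3.3, NumPy 2.4.6 and matplotlib 3.10.9. No molecular identifiers were counted, so that floors cover counting error alone.

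All 10 sensors are named. Of the pathway list, each role gives the genes past the threshold, or the 3 with the smallest adjusted p where more passed, and for ZNF598 and GTPBP1 the nearest tested genes are named. Genes named as not passing, NEFM, MAP2K4, UFD1L and USP10 were picked with their values in view. The members and lists were chosen with earlier results of these data known.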

Additional observations from a re-analysis of the deposited data

How the results depend on the processing

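The count of 3 sensors called went to 1, ZNF598, with library size alone, upper quartile normalization, DESeq2 and limma-voom with quantile normalization, and to between 1 and 2 without each library in turn. The 20 pathway genes called went to 13 with the chromosome median removed, to 12 with DESeq2 and to between 12 and 17 without each library. The 2748 genes called went to 1764 with DESeq2 and to between 1620 and 2591 without each library. With a replicate block there were 3 sensors, 20 pathway genes and 3222 genes called, but the replicate numbers do not pair the libraries (correlation of deviations 0.024 for the same numbers). Signs turned for GTPBP1, at 0.22 with the chromosome median removed, and for values near 0. EDF1 went to 0.06 with library size alone, to 0.01 with upper quartile normalization and with limma-voom, and to between -0.09 and 0.05 without each library. ASCC3 went to 0.07 with library size alone, to 0.01 with upper quartile normalization, to 0.00 with limma-voom, and to between -0.07 and 0.05 without each library. ZAK, at 0.00 and just below it before rounding, went to 0.08 with library size alone, to 0.02 with upper quartile normalization, to 0.03 with limma-voom, to 0.00 with at least 10 counts in every library, and to between -0.08 and 0.07 without each library. Library size alone moved the median of all genes from 0.01 to 0.09 and the share of lower calls from 58.0% to 35.8%, and upper quartile and limma-voom moved this share to 50.8% and 51.3%. The cause of these shifts was not tested. Of the values of single sensors under alternatives, 85 kept direction and call, 15 kept direction but lost the call, 1 gained it and 16 turned sign.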
